A study of Rattus norvegicus with 18 samples.

Results

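The genes described here are 7 genes of phosphate reabsorption and vitamin D metabolism in the kidney: the phosphate transporters Slc34a1, Slc34a3 and Slc20a1, the co-receptor Kl (Klotho), the vitamin D receptor Vdr, and the vitamin D enzymes Cyp24a1 and Cyp27b1. They were taken by identifier from a table of 55335 gene identifiers (Slc34a1, ENSMUSG00000021490; Slc34a3, ENSMUSG00000006469; Slc20a1, ENSMUSG00000027397; Kl, ENSMUSG00000058488; Vdr, ENSMUSG00000022479; Cyp24a1, ENSMUSG00000038567; Cyp27b1, ENSMUSG00000006724). All 7 were among the 19233 genes that passed the filter on low counts. Polyadenylated RNA of whole kidney was sequenced from 18 animals labelled as Rattus norvegicus, 6 per group and 1 library per animal. Treat animals were diabetic nephropathy model animals given TSK, which the labels do not spell out, by mouth at 500 mg/kg per day for 4 weeks. DN animals had diabetic nephropathy induced with a high-fat diet and injection of STZ (streptozotocin, a toxin of insulin-producing beta cells), and the Treat animals carried this induction too. Ctrl animals received ordinary feed and gavage of the solvent. Their strain, sex and age are not stated in the labels used here.

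The kidney decides how much filtered phosphate returns to the blood. In the proximal tubule, the sodium-phosphate cotransporters encoded by Slc34a1 (NaPi-IIa) and Slc34a3 (NaPi-IIc) sit in the brush border, while Slc20a1 (PiT-1) is a broadly expressed sodium-phosphate transporter. Klotho lets FGF receptors respond to FGF23, a hormone from bone that lowers both Slc34 transporters and shifts vitamin D metabolism from activation by Cyp27b1 (1-alpha-hydroxylase) to inactivation by Cyp24a1 (24-hydroxylase). Active vitamin D binds Vdr, and Cyp24a1 is a classical Vdr target. None of these hormones or metabolites was measured here.

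Slc34a3 stood out among the 7 genes. It was lower in DN than in Ctrl, lower again in Treat than in DN, and no library of one group overlapped another group. Relative to Ctrl, Slc34a1 and Kl were lower and Slc20a1, Vdr and Cyp24a1 were higher in both DN and Treat. Cyp27b1 missed the threshold of edgeR's test in every comparison, while DESeq2 and limma voom called it lower in both DN and Treat than in Ctrl. Between Treat and DN, Slc34a3 was the only one of the 7 genes that passed edgeR's test, and DESeq2 also called Slc34a1. The differences from Ctrl carry a limit set by the controls, described before the results. All controls except Ctrl library 4 were set apart from every DN and Treat library by a division of unknown origin. The differences from Ctrl cannot be told apart from that division except through Ctrl library 4.

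Both Slc34 genes, and Kl, whose sequence is not printed, were lower in DN and in Treat than in Ctrl. The start regions of the 2 Slc34 genes are shown and let a reader see which short motifs each holds. They run from 250 bases before to 50 bases after the gene start in RefSeq's rat assembly GRCr8, which follows the labelled species and is not one of the mouse builds named in the processing notes. The labelled species and the mouse identifiers disagree, and if the animals were mice, these windows and motif positions are those of another species. Capitals mark the nuclear receptor half-site AGNTCA and the HNF1 half-site GTTAAT, on either strand, with no bases shared between matches. HNF1 factors are transcription factors of the proximal tubule, and AGNTCA covers half-sites read by Vdr and related receptors.
Slc34a1, chr17:9238934-9239233, minus strand: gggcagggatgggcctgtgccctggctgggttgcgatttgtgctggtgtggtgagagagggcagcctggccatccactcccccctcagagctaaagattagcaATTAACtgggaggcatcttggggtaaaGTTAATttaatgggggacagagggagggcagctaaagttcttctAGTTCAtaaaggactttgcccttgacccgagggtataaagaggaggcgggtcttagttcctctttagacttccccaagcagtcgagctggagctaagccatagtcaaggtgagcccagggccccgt
Slc34a3, chr3:28447948-28448247, minus strand: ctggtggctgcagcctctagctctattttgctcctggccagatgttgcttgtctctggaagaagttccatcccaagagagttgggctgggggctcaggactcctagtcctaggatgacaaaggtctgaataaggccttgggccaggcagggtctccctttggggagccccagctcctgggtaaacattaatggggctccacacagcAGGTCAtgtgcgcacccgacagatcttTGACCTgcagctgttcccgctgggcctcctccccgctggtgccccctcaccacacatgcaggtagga

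The Slc34a1 window held GTTAAT at 2 places, beginning 147 and 120 bases before the start, and AGNTCA at 76 bases before it. The Slc34a3 window held AGNTCA at 2 places, 44 and 17 bases before the start, and no GTTAAT. Over all 33469 promoters of the table, 7.45% held GTTAAT and 46.7% held AGNTCA on either strand, so AGNTCA is common in windows of this length. Promoters of 5 of the 7 genes were in the table. Of the other 3 found there, Kl held 1 AGNTCA match 226 bases before its start, Cyp27b1 held 1 at 123 bases, and Vdr held none. These matches are letters in a window, and no binding was measured.

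Total counts per library ranged from 22040987 to 35275498, and the lowest count of any of the 7 genes was 54, for Slc34a3 in Treat library 2. Some libraries stood apart. ENSMUSG00000086503, an identifier with no gene name in the sources used here, had 38313 to 52784 counts in 5 Ctrl libraries but 23 in Ctrl library 4 and 12 to 41 in every Treat and DN library. This division of the controls runs almost along the line between Ctrl and the other groups, so a difference of Treat or DN from Ctrl cannot be told apart from it except through Ctrl library 4. If the animals differed in sex or strain along this line, only Ctrl library 4 could tell that apart from the model. What the division marks, be it sex, strain or another property of the animals, was not tested. All Treat and DN libraries lie on one side of it, so it cannot separate Treat from DN, although it enters their comparison through the shared fit (319 genes called with it as a covariate, against 268 without). Ctrl library 5 held 5999.8 CPM (counts per 1000000, on library totals scaled by TMM factors) of ENSMUSG00000029368, against 2.08 to 70.4 CPM in the other 17 libraries. Treat library 1 had the lowest limma quality weight of all libraries, 0.275.

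Treat was set against DN to see which genes differed with TSK among model animals. By edgeR's quasi-likelihood test with Benjamini-Hochberg adjustment over all genes, 268 of 19233 genes (1.39%) passed an adjusted p under 0.05, of which 38.4% were higher in Treat. On unscaled library totals the median of all genes shifted by 0.13 (log2), and 84.4% of the calls were higher. The count was 446, 119 or 160 without Treat library 1, 3 or 6, it was 152, 119, 97 or 125 without DN library 1, 2, 4 or 6, and it was 164 without Ctrl library 6. Of the 7 genes, 1 was called, lower in Treat, where 0.858% of all genes were called lower and 0.536% higher. The median size of the log2 fold change was 0.18 over the 7 genes and 0.17 over all genes tested.

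DN was set against Ctrl, where the model and the division of the controls coincide except in Ctrl library 4. What differed with the model cannot be told apart here from what differed with that division. Of the 7 genes, 6 were called, 3 higher and 3 lower, where 32.2% of all genes were called (16.9% higher and 15.3% lower). The median size of the log2 fold change was 0.76 over the 7 genes and 0.30 over all genes. Treat versus Ctrl likewise called 6 of the 7 genes, 3 higher and 3 lower, where 44.9% of all genes were called (23.0% higher and 21.9% lower), with a median size of 0.81 against 0.37 over all genes. The 2 comparisons share the Ctrl libraries, and Treat versus DN shares the DN libraries with DN versus Ctrl. In each comparison with Ctrl the groups did not overlap for 4 of the 7 genes, where DN and Ctrl did not overlap for 16.2% of all genes and Treat and Ctrl for 24.7%.

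**Figure D1:**
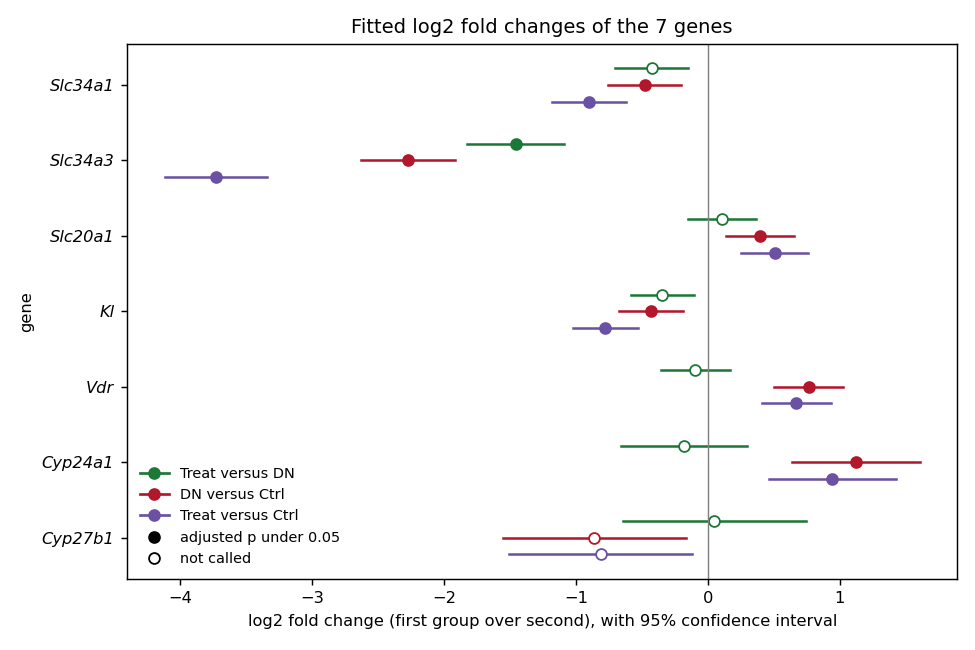
Fitted log2 fold changes with 95% confidence intervals for the 7 genes in Treat versus DN, DN versus Ctrl and Treat versus Ctrl (positive, higher in the group named first; filled, adjusted p under 0.05). Slc34a3 lies farthest from 0, at -1.46, -2.27 and -3.73, and is the only gene filled in Treat versus DN.

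When the division of the controls entered the fit as a covariate, Ctrl library 4 was the only control on the side of the Treat and DN libraries. DN versus Ctrl then called 986 of all genes and 1 of the 7, Slc34a3. Treat versus Ctrl called 1862 of all genes and 3 of the 7 (Slc34a1, Slc34a3 and Kl). The spread assumed for the lone control is that of the other libraries. Both comparisons called 6 of the 7 genes without Ctrl library 4, and likewise without Ctrl libraries 4 and 5. With Ctrl library 4 left out, every control lies across the division from the Treat and DN libraries. Those fits therefore cannot separate the groups from the division. Ctrl library 4 lay inside the range of the other 5 controls for 4 of the 7 genes and outside it for Kl, Vdr and Cyp27b1.

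**Figure D2:**
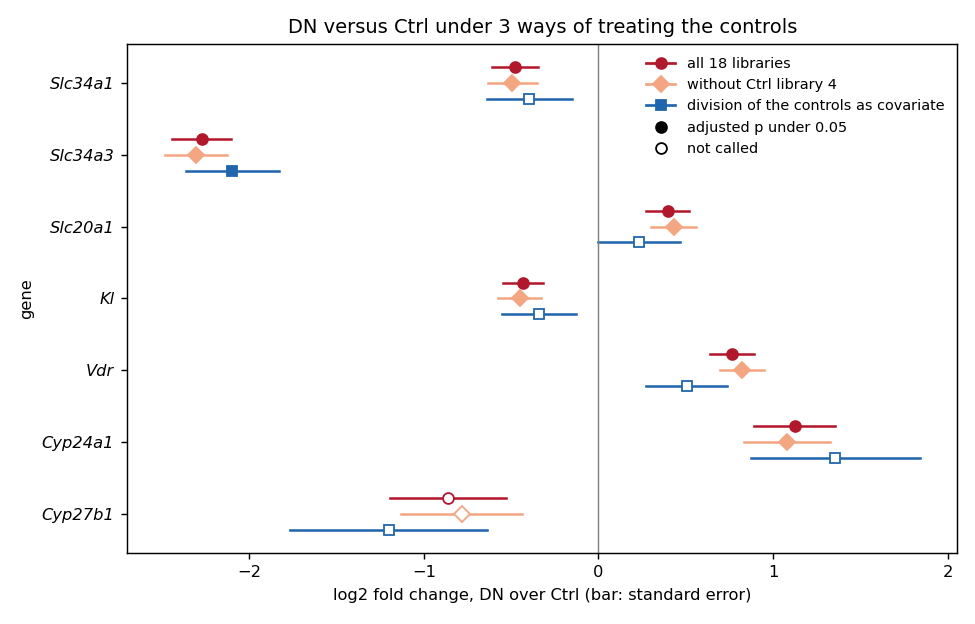
Log2 fold changes of DN over Ctrl with standard errors in the fit of all 18 libraries, without Ctrl library 4, and with the division of the controls as a covariate (filled, adjusted p under 0.05). The fit without Ctrl library 4 cannot separate the groups from the division. All 7 genes keep their direction, and with the covariate Slc34a3 alone is called, at -2.10.

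Slc34a3, the brush-border cotransporter NaPi-IIc, had a lowest, median and highest level of 2.35, 3.16 and 4.44 CPM in Treat, 6.65, 8.61 and 12.8 CPM in DN, and 37.1, 40.0 and 53.2 CPM in Ctrl. The 3 groups did not overlap, and Ctrl library 4, with 37.7 CPM, lay among the other controls (37.1 to 53.2 CPM). The counts behind these levels were 54 to 116 in Treat, 197 to 325 in DN and 1034 to 1485 in Ctrl. In whole kidney RNA, fewer cells that express a gene and less RNA per cell cannot be told apart.

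Slc34a3 fell in Treat to 3.21 ± 0.820 CPM, against 8.82 ± 2.22 CPM in DN (SD, n = 6 each), a log2 fold change of -1.46 (SE 0.18, edgeR adjusted p = 0.000442). This is 0.364 of the DN level, and all 6 Treat libraries lay below all 6 DN libraries, as was the case in either direction for 1.80% of all genes. Slc34a3 had the 5th smallest p of the 19233 genes. It was called in each of 29 alternative settings (adjusted p at most 0.0102, log2 fold change from -1.57 to -1.31), library totals included. In DN it fell to 8.82 ± 2.22 CPM, against 42.6 ± 6.49 CPM in Ctrl, a log2 fold change of -2.27 (SE 0.17, adjusted p = 5.44e-08). In the fit with the control division as covariate it was -2.10 (adjusted p = 0.000352, the highest of the 29 settings, the lowest being 3.18e-37). Between Treat and Ctrl the log2 fold change was -3.73 (SE 0.18, adjusted p = 4.13e-10), a level 13.3-fold lower in Treat.

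Slc34a1, the brush-border cotransporter NaPi-IIa, had a lowest, median and highest level of 895, 959 and 1429 CPM in Treat, 1238, 1379 and 1942 CPM in DN, and 1905, 1995 and 2170 CPM in Ctrl. Treat and DN overlapped through Treat libraries 5 (1429 CPM) and 6 (1347 CPM), and DN and Ctrl only through DN library 5 (1942 CPM). Treat and Ctrl did not overlap. Slc34a1 averaged 1454.5 ± 258 CPM in DN and 2024 ± 125 CPM in Ctrl (SD, n = 6 each), a log2 fold change of -0.48 (SE 0.13, edgeR adjusted p = 0.0102). That call was lost in the fit with the control division (-0.40, adjusted p = 0.357; range over 29 settings 0.000558 to 0.357). Treat averaged 1084 ± 239 CPM, a log2 fold change of -0.90 against Ctrl (SE 0.13, adjusted p = 4.02e-05), which held in all 29 settings (-0.82 and adjusted p = 0.0362 with the covariate). Between Treat and DN the log2 fold change was -0.42 (SE 0.13, 95% confidence interval -0.70 to -0.15), with 5 of 6 Treat libraries under the DN median, and it did not pass the adjustment over all genes (adjusted p = 0.113). DESeq2 called it (-0.42, adjusted p = 0.0490), while the highest adjusted p of the 29 settings was 0.262.

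**Figure D3:**
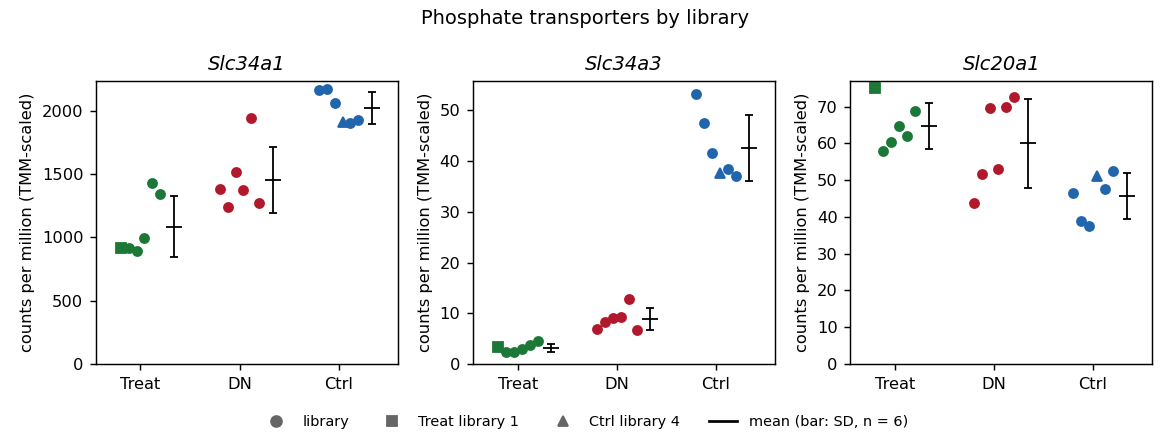
Phosphate transporter levels in CPM (TMM-scaled, linear axis from 0) in the Treat, DN and Ctrl groups; each point is a library, the square is Treat library 1, the triangle is Ctrl library 4, and the bar is the mean ± SD of 6 libraries. The 3 groups are separate for Slc34a3 (at most 4.44 CPM in Treat, 6.65 to 12.8 CPM in DN, at least 37.1 CPM in Ctrl), while they overlap in part for Slc34a1 and Slc20a1.

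The proportion of the 2 Slc34 transcripts differed between the groups. Per 1000 Slc34a1 counts there were 2.59 to 3.70 Slc34a3 counts in Treat (median 2.78), 5.03 to 6.76 in DN (median 6.27) and 19.3 to 24.6 in Ctrl (median 20.2). The groups did not overlap, and Ctrl library 4, at 19.7, lay among the other controls. The ratio holds both transcripts' lengths, so only its differences between libraries can be read. Within groups the highest and lowest libraries were partly shared. DN library 5 was the highest DN library for both genes and Treat library 3 the lowest Treat library for both, but the lowest DN library was 2 for Slc34a1 and 6 for Slc34a3, and the lowest Ctrl library was 5 for Slc34a1 and 6 for Slc34a3.

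Slc20a1, the broadly expressed transporter PiT-1, was higher in DN and in Treat than in Ctrl, the opposite direction to the Slc34 genes. Its lowest, median and highest levels were 57.9, 63.3 and 75.1 CPM in Treat, 43.6, 61.4 and 72.5 CPM in DN, and 37.5, 46.9 and 52.4 CPM in Ctrl. All 6 Treat libraries lay above all Ctrl libraries, while 2 DN libraries lay inside the Ctrl range. Slc20a1 rose in Treat to 64.8 ± 6.25 CPM, against 45.6 ± 6.23 CPM in Ctrl (SD, n = 6 each; log2 fold change 0.51, SE 0.12, edgeR adjusted p = 0.00285). It was also called higher in DN, at 60.1 ± 12.1 CPM (log2 fold change 0.40 against Ctrl, SE 0.12, adjusted p = 0.0194). The DN call was just lost without DN library 3 (0.35, adjusted p = 0.0506) or DN library 5 (0.35, adjusted p = 0.0506). Neither was called in the fit with the control division (DN 0.23, adjusted p = 0.600, the highest of a range from 0.00496; Treat 0.34, adjusted p = 0.367, the highest of a range from 0.000396). Treat and DN differed by 0.11 (95% confidence interval -0.15 to 0.37, adjusted p = 0.705).

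**Figure D4:**
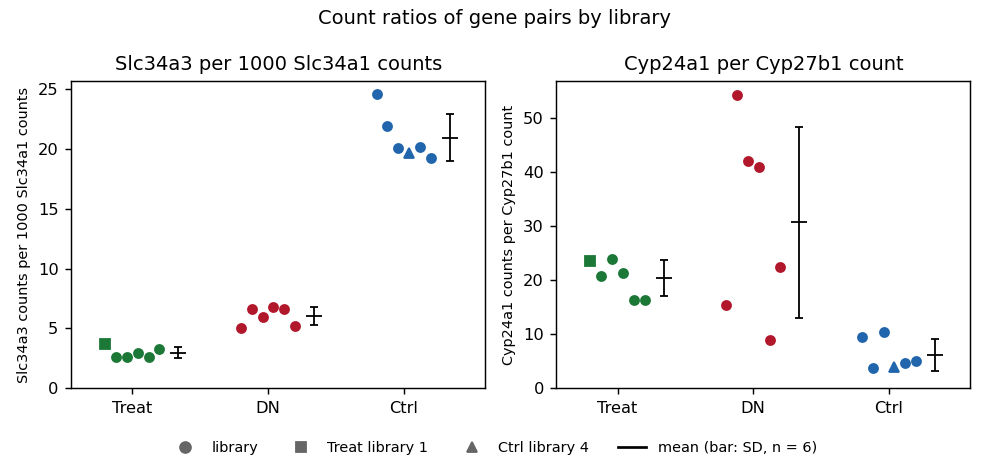
Ratios of counts by library in the Treat, DN and Ctrl groups (linear axes from 0; square, Treat library 1; triangle, Ctrl library 4; bar, mean ± SD of 6 libraries). Slc34a3 per 1000 Slc34a1 counts separates all 3 groups, and Cyp24a1 per Cyp27b1 count is wide in DN (8.91 to 54.3), narrow in Treat (16.2 to 24.0) and lowest in Ctrl (3.71 to 10.4).

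Kl encodes Klotho, the FGF23 co-receptor, which in kidney is made mainly by distal tubule cells. It had a lowest, median and highest level of 191, 312 and 350.3 CPM in Treat, 347, 374 and 412 CPM in DN, and 479, 505 and 565 CPM in Ctrl. Every Treat and DN library lay below every Ctrl library. Kl fell in DN to 378 ± 27.6 CPM, against 510 ± 31.4 CPM in Ctrl (SD, n = 6 each; log2 fold change -0.43, SE 0.12, edgeR adjusted p = 0.00826). In Treat it fell to 298 ± 61.6 CPM (log2 fold change -0.78 against Ctrl, SE 0.12, adjusted p = 4.57e-05).

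Ctrl library 4 was the lowest control for Kl (478.7 CPM, the other controls 485 to 565 CPM), and all 12 Treat and DN libraries were lower still. In the fit with the control division the DN difference was -0.34 and no longer called (adjusted p = 0.366, the highest of a range from 0.000312), while the Treat difference was still called (-0.69, adjusted p = 0.0449). All 6 Treat libraries lay below the DN median, but Treat libraries 4 and 6 exceeded the lowest DN library, and Treat versus DN was not called (-0.34, SE 0.12, 95% confidence interval -0.59 to -0.10, adjusted p = 0.144). Treat library 1, at 191 CPM, was the lowest of all libraries, and without it the difference was -0.24 (adjusted p = 0.126; range over 29 settings 0.0627 to 0.281).

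Vdr, the nuclear receptor for active vitamin D, had a lowest, median and highest level of 162, 220.1 and 273 CPM in Treat, 188, 253 and 276 CPM in DN, and 120.1, 142 and 169 CPM in Ctrl. DN did not overlap Ctrl, and only Treat library 1 (162 CPM) lay within the Ctrl range. Vdr rose in DN to 239.5 ± 33.5 CPM, against 141 ± 18.5 CPM in Ctrl (SD, n = 6 each; log2 fold change 0.76, SE 0.12, edgeR adjusted p = 0.000161). It rose in Treat to 224 ± 38.9 CPM (log2 fold change 0.67 against Ctrl, SE 0.12, adjusted p = 0.000328). Ctrl library 4 was the highest control for Vdr, at 169 CPM against 120.1 to 151 CPM in the other 5. Neither difference was called in the fit with the control division (DN 0.51, adjusted p = 0.212, the highest of a range from 6.91e-08; Treat 0.41, adjusted p = 0.260, the highest of a range from 1.35e-06). Treat and DN differed by -0.09 (95% confidence interval -0.35 to 0.16, adjusted p = 0.758), and the sign was reversed with library totals (0.04).

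Cyp24a1, the 24-hydroxylase that inactivates vitamin D, had a lowest, median and highest level of 101, 179 and 262 CPM in Treat, 161, 191 and 267 CPM in DN, and 61.8, 84.4 and 153 CPM in Ctrl. All DN libraries lay above all controls, while Treat libraries 1 (101 CPM) and 5 (131 CPM) lay within the Ctrl range, below Ctrl library 1 (153 CPM). Cyp24a1 rose in DN to 206 ± 43.5 CPM, against 94.7 ± 31.6 CPM in Ctrl (SD, n = 6 each), which is 2.18-fold higher (log2 fold change 1.12, SE 0.23, edgeR adjusted p = 0.00123). In Treat it rose to 182 ± 61.7 CPM, 1.92-fold above Ctrl (log2 fold change 0.94, SE 0.23, adjusted p = 0.00289).

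Ctrl library 4 had 80.5 CPM of Cyp24a1, among the other controls, and every Treat and DN library lay above it. In the fit with the control division both fold changes were larger, but so were their errors, and neither was called. That fit gave 1.36 for DN (SE 0.48, adjusted p = 0.107, the highest of a range from 8.17e-06) and 1.18 for Treat (SE 0.48, adjusted p = 0.121, the highest of a range from 0.000125). Treat and DN differed by -0.18 (95% confidence interval -0.66 to 0.30, adjusted p = 0.746).

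Cyp27b1, the 1-alpha-hydroxylase that makes active vitamin D, had a lowest, median and highest level of 4.31, 8.58 and 16.1 CPM in Treat, 4.17, 7.42 and 18.1 CPM in DN, and 10.1, 16.3 and 20.7 CPM in Ctrl. Its groups overlapped in every comparison, and it was the most variable of the 7 genes within Treat and within DN (coefficient of variation 43.4% and 58.6%, against 22.1% in Ctrl). It averaged 9.32 ± 4.05 CPM in Treat, 9.03 ± 5.29 CPM in DN and 16.4 ± 3.62 CPM in Ctrl (SD, n = 6 each). It just missed the threshold between DN and Ctrl (log2 fold change -0.86, SE 0.33, edgeR adjusted p = 0.0534; 5 of 6 DN libraries below the Ctrl median) and between Treat and Ctrl (-0.81, SE 0.33, adjusted p = 0.0529; 6 of 6 Treat libraries below it).

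The side of the threshold on which Cyp27b1 fell depended on the tool, the filter, a replicate block and single libraries. With all 18 libraries, DN versus Ctrl was called by DESeq2 (adjusted p = 0.0264), limma voom (0.00275), edgeR on library totals (0.0364) and edgeR after a filter on CPM (0.0482). Treat versus Ctrl was called by DESeq2 (0.0301), limma voom (0.0122) and edgeR after the filter on CPM (0.04997), and also in a fit of only its 12 libraries (0.0245). By edgeR, DN versus Ctrl was also called without DN library 5 (adjusted p = 0.00890), DN library 1 (0.0492), Ctrl library 3 (0.0415), Treat library 1 (0.0361) or Treat library 6 (0.0427), and over 29 settings its adjusted p ran from 0.00275 to 0.221. Treat versus Ctrl was called without Treat library 6 (0.0187), Ctrl library 3 (0.0384) or DN library 2 (0.0480), 3 (0.0408) or 5 (0.0283), and its adjusted p ran from 0.0122 to 0.198. Treat and DN differed by 0.05 (95% confidence interval -0.65 to 0.74, adjusted p = 0.961), and the sign was reversed when Treat library 4 or 6 or DN library 2, 3 or 4 was left out (-0.18 at the lowest).

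**Figure D5:**
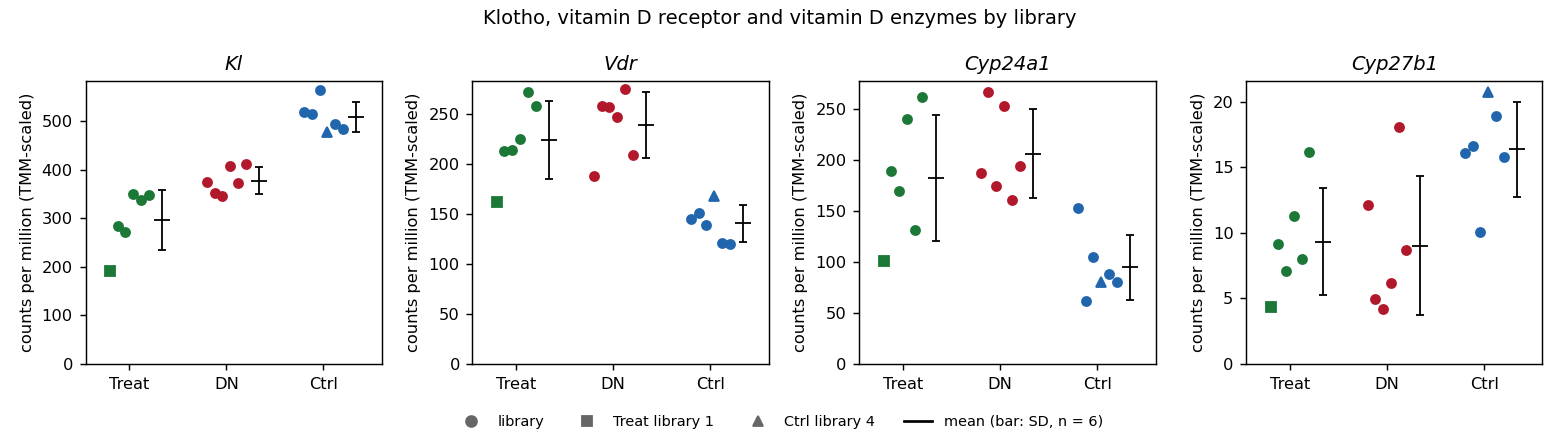
Levels of Kl, Vdr, Cyp24a1 and Cyp27b1 in CPM (TMM-scaled, linear axes from 0) in the Treat, DN and Ctrl groups; each point is a library, the square is Treat library 1, the triangle is Ctrl library 4, and the bar is the mean ± SD of 6 libraries. Treat library 1 is the lowest Treat library in all 4 panels, and Kl in Treat and DN (at most 412 CPM) lies below every Ctrl library (at least 479 CPM).

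The 2 vitamin D enzymes, which act in opposite directions, were set against each other library by library. For each Cyp27b1 count there were 16.2 to 24.0 Cyp24a1 counts in Treat (median 21.0), 8.91 to 54.3 in DN (median 31.7) and 3.71 to 10.4 in Ctrl (median 4.86). This ratio, too, holds both transcripts' lengths, so only its differences between libraries can be read. No Treat library overlapped the controls, while DN library 5 (8.91) lay within the Ctrl range. In Treat the levels of both enzymes ran together, lowest in library 1 and highest in library 6. In DN they did not, since library 5 had the highest Cyp27b1 and the lowest Cyp24a1 level of the group. Ctrl library 4, at 3.89, lay within the other controls.

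Between the fit of all libraries and the covariate fit, the size of the DN difference was smaller for Slc34a1, Slc34a3, Slc20a1, Kl and Vdr, and larger for Cyp24a1 and Cyp27b1. Treat library 1, which had the lowest quality weight, was the lowest Treat library for Kl, Vdr, Cyp24a1 and Cyp27b1 and the highest for Slc20a1. Without it the Treat versus DN difference was -1.47 for Slc34a3 (adjusted p = 0.000758), -0.38 for Slc34a1, 0.06 for Slc20a1, -0.02 for Vdr, -0.06 for Cyp24a1 and 0.20 for Cyp27b1. None of these 7 genes, Kl included, changed its call in that comparison without Treat library 1.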

How the data were processed

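The authors deposited raw counts per gene, without normalization. Per the submitters' processing notes the builds were GRCm38 and mm10, both mouse, whereas the labels name rat. Which species the animals belonged to stays unknown from these files. If rat reads were counted on mouse genes, losses would differ between genes. Levels of different genes therefore cannot be compared within a library, and the ratios of gene pairs can be read only between libraries. No aligner, counter or strand setting is stated in the labels, and without strand, antisense reads cannot be told apart. Gene symbols of the members came with the list of identifiers, and 0 of the mouse identifiers are in the rat RefSeq table (GRCr8) used for promoters. The planned lists of other pathway genes, cell type markers and genes of like pattern were therefore not used here, nor was the kidney label checked against markers.

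Groups came from the sample titles. The count model was edgeR 4.0.16 under R 4.3.3: filterByExpr, TMM factors, all 18 libraries in 1 fit without covariates, glmQLFTest, and Benjamini-Hochberg adjustment over 19233 genes with a threshold of 0.05. Standard errors were derived from the F statistic. CPM use TMM-scaled totals. On simulated data for Treat versus DN (18927 genes), 86% of 50 genes changed by 2-fold were called and 58% of 50 changed by 1.5-fold. The changed genes had mean counts of at least 50, and 13 unchanged genes were also called. The simulation held no outlying library such as Treat library 1, so these rates may not hold for the real comparison. No libraries were near-identical (lowest chi-square per degree of freedom 11.8 over 45 pairs). Alternatives were DESeq2 1.42.0, limma 3.58.1 (voom with quality weights), RLE factors, library totals, no filter, a minimum of 1 CPM in 6 libraries, a fit of the 12 libraries of each comparison, a replicate block, the division of the controls (over 1000 counts of ENSMUSG00000086503) as a covariate, and libraries left out. The members, lists and alternatives were chosen with earlier results of these data known. Every member is named in every comparison. Ratios and ranges carry no test.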

Additional observations from a re-analysis of the deposited data

How the results depend on the processing

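Across 29 alternative settings and 21 results (7 genes in 3 comparisons), 570 of 609 values kept direction and side of the threshold, and none of the 13 calls was reversed. For Treat versus DN, genes called over all genes numbered 775 with library totals, 119 without a filter, 116 with only the 12 libraries compared, 117 with the replicate block, 593 without Ctrl library 4 and Treat library 1, 799 with DESeq2 and 737 with voom, and 97 to 446 with single libraries left out. With DESeq2, 2 of the 7 genes were called, Slc34a1 being the second (-0.42). Vdr was reversed with library totals (0.037) and without Ctrl library 4 and Treat library 1 (0.0026), and Cyp27b1 ranged from -0.18 to 0.37 with single libraries left out. The cause was not tested.

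In the fit with the control division, which rests on 1 control, DN versus Ctrl called 986 genes and 1 of the 7 genes (Slc34a1 -0.40, Slc20a1 0.23, Kl -0.34, Vdr 0.51 and Cyp24a1 1.36 were not called), and Treat versus Ctrl called 1862 genes and 3 of the 7 (Slc20a1 0.34, Vdr 0.41 and Cyp24a1 1.18 were not called). Slc20a1 in DN versus Ctrl was 0.29 with voom, not called, and 0.33 to 0.47 with single libraries left out. Cyp27b1 became called in DN versus Ctrl with library totals (-0.92), the CPM filter (-0.86), the replicate block (-0.94), DESeq2 (-0.86) and voom (-1.07), ranging from -1.18 to -0.71 with single libraries left out. It became called in Treat versus Ctrl with the CPM filter (-0.81), only the 12 libraries (-0.79), the replicate block (-0.81), DESeq2 (-0.81) and voom (-0.78), ranging from -1.04 to -0.67 with single libraries left out.

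Correlations of same-numbered deviations ran from -0.19 to 0.19 over 18 pairs. Differently numbered pairs were not computed as a reference, so whether the replicate numbers pair the samples cannot be told. Among the 7 genes, the replicate block changed no calls other than those of Cyp27b1. The labels name no batch.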
